A study of Ictidomys tridecemlineatus with 15 samples.

Results

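Chromatin modifiers and remodellers are the enzymes and scaffolds that write, erase and read chemical marks on histones, or that slide, eject and exchange nucleosomes. Their genes were taken by name from the transcription units that carry a single gene: names starting with Kdm, Kmt, Hdac, Sirt, Kat, Chd, Brd or Prmt and a digit, or with Setd, Smarc, Arid, Ep300 or Crebbp. The rule found 46 of the 4705 single-gene units in the table, which also holds 1619 units where overlapping genes were merged. The 46 comprised 9 lysine demethylases, 8 lysine methyltransferases, 3 arginine methyltransferases, 3 deacetylases, 6 acetyltransferases, 3 bromodomain proteins, 11 SWI/SNF-type remodellers and ARID proteins, and 3 CHD remodellers. No Sirt gene and no Crebbp stood alone in a unit.

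Nascent transcription was measured by global run-on sequencing (GRO-seq) in liver of laboratory-housed female 13-lined ground squirrels (Ictidomys tridecemlineatus) from a breeding colony, whose age the labels do not give. Per the study, body temperature was read from an implanted recorder or with a rectal probe, and the squirrels were not otherwise treated. In GRO-seq, nuclei are isolated and polymerases that were already transcribing extend their RNA with a labelled nucleotide. Reads thus count polymerases engaged on a gene and able to elongate, rather than RNA stored in the cell. They do not give the rate of synthesis in the animal. The run-on lasted 7 min at 30 °C for nuclei of every state, which is far above the body temperature of torpid animals.

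The 5 states were SA (summer active and warm, before the hibernation season), IBA (interbout aroused, that is rewarmed between torpor bouts in winter), Ent (entering torpor and cooling), ET (early torpor, cold) and LT (late torpor, cold). Each of SA, IBA, Ent and ET had 3 animals and LT had 2, with 1 library per animal, and LT replicate 2 was not analysed here. SA and IBA are called the warm states below (6 libraries) and ET and LT the cold states (5 libraries). Total counts per library ran from 3713883 to 8884763, of which the 46 genes took 0.809 to 0.928%. Every one of the 46 had at least 45 counts in every library. A filter on low counts would remove 0 of them, but also 0 of all 4705 single-gene units. The study describes 4705 genes as already past its filter, so this says nothing particular of the 46. The animals were collected over 3 seasons. SA replicate 1, Ent replicates 1 and 2 and both LT animals came from the first, the ET animals from the second, and SA replicates 2 and 3, the IBA animals and Ent replicate 3 from the third. No other state shared the season of ET, so these cannot be told apart. No cold library came from the third season, which gave most of the warm ones. The comparison of cold with warm states below was fitted without a season term, so season and temperature are partly mixed in it.

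Levels are given as CPM, the counts per 1e+06 of the TMM-scaled library. CPM are relative within a library, so a change in the transcription of the whole genome cannot be seen in them. In whole liver, a change in the share of a cell type and a change per cell cannot be told apart either. The summed CPM of 7 hepatocyte markers ran from 8735 to 20166 in the warm libraries and from 3688 to 6988 in the cold ones, and 5 of the 7 were lower in the cold states at the threshold used below. CYP7A1, one of the 7, was at 0 in 2 cold libraries (ET replicate 2 and LT replicate 3). The endothelial markers with a unit (Kdr, Stab1 and Pecam1, 3 of 7) summed to 186 to 241 CPM in warm and 124 to 203 in cold libraries. Their log2 changes differed in sign (-0.86 for Kdr, 0.39 for Stab1 and -0.68 for Pecam1), and 1 of the 3 passed that threshold. The cholangiocyte marker Sox9 (1 of 5) stood at 16.5 to 41.0 CPM in warm and 7.07 to 18.1 in cold libraries. Marker lists for Kupffer cells, stellate cells, leucocytes and red cells had 0 single-gene units. The part of cell composition in the results below was not tested.

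As background, lysine methylation of histone tails can mark active or silent chromatin depending on the residue, and it is set by methyltransferases and removed by demethylases. Acetylation by acetyltransferases loosens the contact of histones with DNA and is read by bromodomains, while deacetylases remove it. SWI/SNF and CHD remodellers spend ATP to move nucleosomes, and ARID proteins are DNA-binding subunits of several of these complexes. In liver these enzymes act with nuclear receptors and other factors on metabolic genes.

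The summed level of the 46 genes was alike in the 5 states under TMM scaling. It was 8705 CPM ± 185 (SD, n = 3) in SA, 8628 ± 281 (n = 3) in IBA, 8300 ± 317 (n = 3) in Ent, 8445 ± 242 (n = 3) in ET and 8754 ± 545 (n = 2) in LT. The mean of the cold libraries divided by that of the warm libraries was 0.989, and the library ranges overlapped (8308 to 8898 CPM warm, 8262 to 9140 CPM cold). When libraries were instead scaled to their uniquely mapped reads, this ratio was 1.16 and the ranges no longer overlapped (4545 to 4966 warm, 5255 to 5978 cold, scaled to mapped reads). That scaling moved the median log2 change of all single-gene units between cold and warm from -0.07 to 0.16, and that of the 46 genes from 0.02 to 0.25.

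Single genes moved in opposite directions. In a test across the 5 states (edgeR quasi-likelihood F test, adjusted p at or under 0.001, which is what "called" means below), 9 of the 46 genes were called, or 19.6%, against 26.4% of all single-gene units, and 23 at an adjusted p of 0.05 (50.0%, against 63.3%). In the contrast of cold with warm states 13 were called, or 28.3%, against 37.0%, and 24 at an adjusted p of 0.05 (52.2%, against 65.1%). Of the 13, 7 were higher in the cold (15.2%, against 18.3%) and 6 lower (13.0%, against 18.7%), so in neither direction did the share exceed the background. The warm and cold libraries did not overlap for 16 of the 46 genes (34.8%, against 40.5%). The genes that rose were the acetyltransferases Kat5, Kat7 and Kat8, the remodeller genes Chd1 and Smarce1, and the demethylases Kdm3a and Kdm4a. Those that fell were Setdb1, SETDB2_like, Smarcad1, Smarcd2, Smarca2 and Kat6a. The median size of the log2 change between cold and warm was 0.33 for the 46 genes and 0.56 for all single-gene units.

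Of the 13 calls, 8 held under each of the 14 fits that left out 1 library and under 8 other settings (Kat5, Kat7, Kat8, Chd1, Smarce1, Kdm4a, Setdb1 and Smarcad1). The count was 8, with 6 higher and 2 lower, without IBA replicate 1, LT replicate 1 or LT replicate 3. With libraries scaled to mapped reads 12 were called, 10 higher and 2 lower, and the lower ones were then Setdb1 and Smarcad1. No share over all units was taken under that scaling, which moved the median log2 change of all single-gene units from -0.07 to 0.16. The first-season libraries alone (SA replicate 1 and both LT libraries) gave log2 differences of the same sign for all 13, from -2.68 for Setdb1 to 1.41 for Kat5. These libraries were part of the fit that called the 13, so the shared sign is no independent support.

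**Figure D1:**
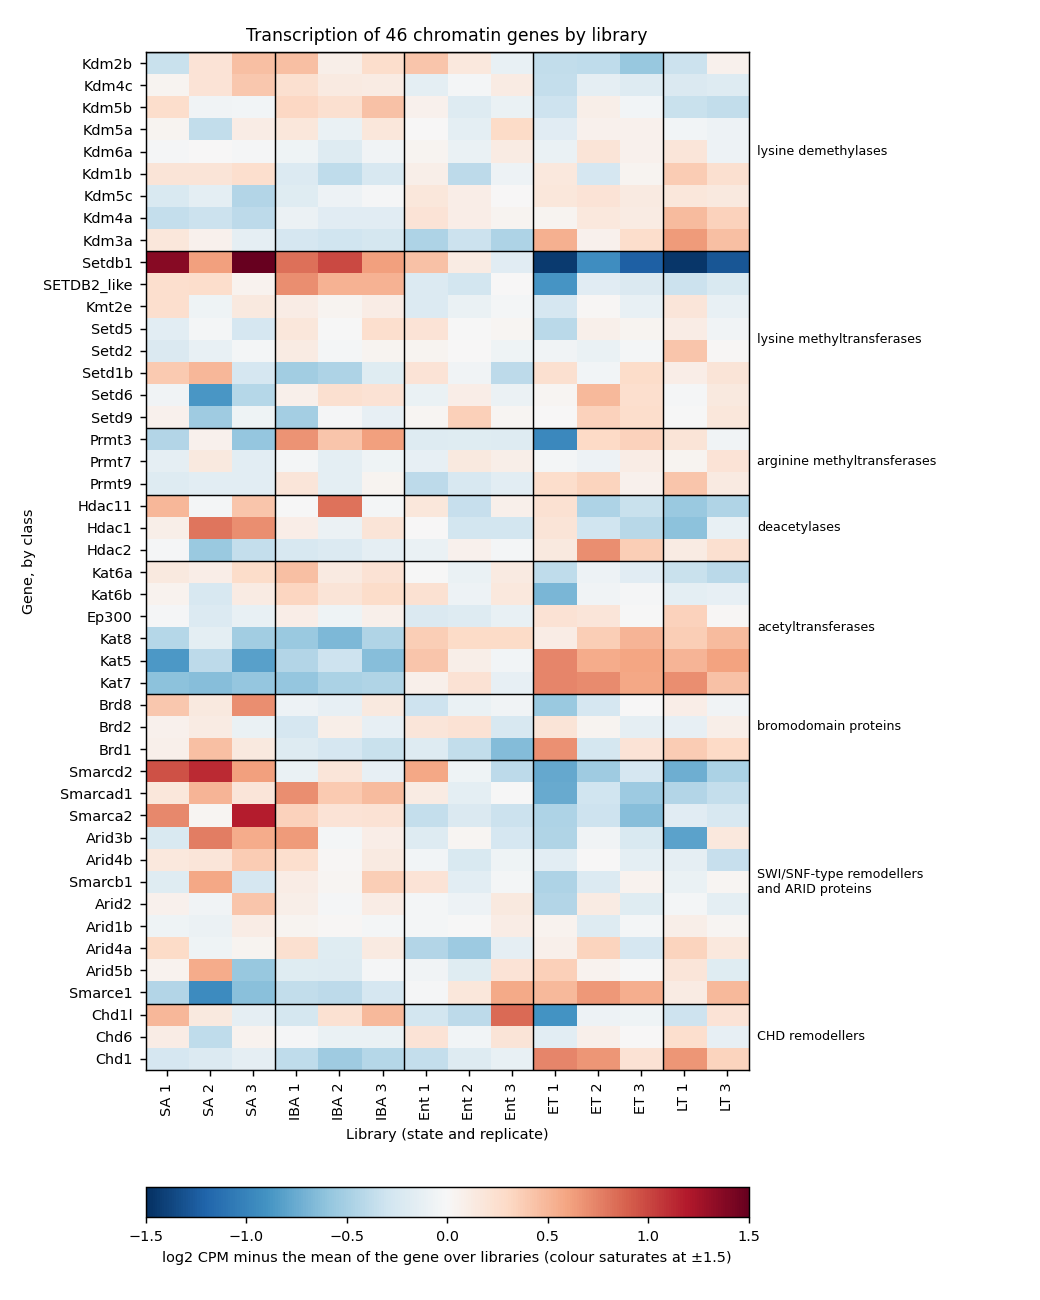
Each row is 1 of the 46 genes, grouped by class, and each column 1 of the 14 libraries. Colour gives log2 CPM minus the mean of that gene over libraries, red above and blue below, and saturates at ±1.5. Setdb1 runs from red in SA and IBA to dark blue in ET and LT, Kat5, Kat7 and Kat8 run the other way, and most rows are pale.

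Of the 6 acetyltransferases, 3 rose in the cold, 1 fell and 2 were not called, with a median log2 change of 0.52. Over all single-gene units 18.3% rose and 18.7% fell, with a median of -0.07. A class of 6 is too small to be set apart from these shares. The 3 that rose have units under 50000 nt, a length at which 43.2% of all single-gene units were called. Kat7, the catalytic subunit of the HBO1 complex, which acetylates histones H3 and H4, lies on chromosome Itri7 of the HiC_Itri_2 genome from 25270149 to 25299915 on the plus strand. It stood at 61.7, 60.5 and 63.2 CPM in SA, 63.1, 67.9 and 68.8 in IBA, 99.5, 110 and 86.9 in Ent, 157, 154 and 141 in ET, and 153 and 128 in LT. Warm, entering and cold libraries formed separate tiers with no overlap. Its level in the cold was 2.26-fold that in the warm (log2 change 1.18 ± 0.09 SE, edgeR adjusted p = 5.3e-07).

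Kat5, also called Tip60, is the acetyltransferase of the NuA4 complex that works in DNA repair and gene activation (Itri3, 7315618 to 7332673, minus strand). Its levels were 18.1, 25.0 and 18.8 CPM in SA, 24.2, 26.5 and 21.1 in IBA, 44.1, 35.1 and 32.0 in Ent, 54.8, 48.3 and 49.8 in ET, and 47.0 and 50.1 in LT. Each Ent library lay above every warm one and below every cold one. The cold level was 2.24-fold the warm level (log2 change 1.17 ± 0.13 SE, edgeR adjusted p = 7.9e-06).

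Kat8, or MOF, which acetylates lysine of histone H4 and takes part in dosage compensation in flies, has one of the shortest units of the group, 11443 nt (Itri9, 125378470 to 125389912, plus strand). It gave 18.3, 22.3 and 17.2 CPM in SA, 16.8, 15.5 and 18.0 in IBA, 31.8, 30.2 and 30.2 in Ent, 26.7, 31.8 and 35.0 in ET, and 32.0 and 34.2 in LT. Here the Ent libraries already lay among the cold ones, and all 8 libraries of Ent, ET and LT were above all 6 warm libraries. The cold level was 1.79-fold the warm level (log2 change 0.84 ± 0.12 SE, edgeR adjusted p = 5.7e-05).

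Kat6a and Kat6b, the related MOZ and MORF enzymes, are far longer genes (103825 and 191095 nt) and gave changes of the other sign. Kat6a, described here after its values were seen, averaged 263 CPM ± 16.4 in SA, 281 ± 32.3 in IBA, 235 ± 19.5 in Ent, 202 ± 21.7 in ET (n = 3 each, SD) and 180 ± 6.57 in LT (n = 2), and its warm and cold libraries did not overlap. It fell by 0.51 on the log2 scale (SE 0.09, edgeR adjusted p = 4.0e-04), and it was not called with mapped-read scaling (-0.28) or in 6 of the 14 fits that left out a library (SA replicate 3, IBA replicates 1 and 3, ET replicate 3 and either LT library). Kat6b stood at 350, 286 and 370 CPM in SA, 424, 388 and 408 in IBA, 395, 320 and 378 in Ent, 211, 325 and 335 in ET, and 305 and 311 in LT. The low ET replicate 1 set the width of its cold range, and its log2 change of -0.30 ± 0.13 was not called (edgeR adjusted p = 0.051). Ep300, the p300 coactivator that acetylates enhancers, stood at 383, 335 and 359 CPM in SA, 414, 370 and 409 in IBA, 333, 339 and 358 in Ent, 451, 438 and 385 in ET, and 492 and 393 in LT. Ranges overlapped, and the log2 change of 0.20 ± 0.09 was not called (edgeR adjusted p = 0.070).

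The 8 lysine methyltransferases held the largest fall among the 46 genes. Setdb1, which trimethylates lysine of histone H3 in silent chromatin and keeps transposable elements repressed, lies on Itri11 from 22091099 to 22107214 on the plus strand. It stood at 48.2, 28.6 and 54.9 CPM in SA, 33.2, 37.2 and 28.6 in IBA, 25.3, 20.3 and 16.6 in Ent, 6.92, 9.82 and 7.98 in ET, and 6.80 and 7.66 in LT. The states ran downhill from warm through Ent to cold without overlap. The cold level was 4.94-fold lower than the warm level (log2 change -2.30 ± 0.20 SE, edgeR adjusted p = 1.4e-06). It also had the lowest count of any of the genes in any library, 45.

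SETDB2_like, a unit that the annotation names for its likeness to the related enzyme Setdb2, had its highest levels in IBA. Its levels were 97.6, 98.5 and 85.0 CPM in SA, 133, 118 and 118 in IBA, 71.2, 67.6 and 82.1 in Ent, 44.3, 72.7 and 70.5 in ET, and 65.6 and 70.1 in LT. No cold library reached the lowest warm one, and Ent lay among the cold libraries or just above them. It fell by 0.72 on the log2 scale (SE 0.13, edgeR adjusted p = 3.8e-04), and it was not called without SA replicate 1, IBA replicate 1 or either LT library, nor with mapped-read scaling (-0.49).

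The other 6 methyltransferase genes were not called and ran from -0.14 to 0.32 in log2 change. Setd5, a SET-domain protein with the highest level per length of the class (4.87 CPM per kb), stood at 343, 374 and 322 CPM in SA, 431, 382 and 457 in IBA, 442, 381 and 391 in Ent, 290, 404 and 393 in ET, and 413 and 369 in LT. Of the successive states, SA and IBA alone did not overlap. Its log2 change between cold and warm was -0.02 ± 0.11, and 0.20 with mapped-read scaling, so it had no fixed sign. Setd2, which sets the methylation that follows elongating polymerase, gave 0.12 ± 0.09. Setd1b, a promoter methyltransferase, gave 0.22 ± 0.15, Setd6, which methylates a subunit of NF-kB, 0.28 ± 0.14, Setd9 0.32 ± 0.14, and Kmt2e, a reader of methylated histone H3, -0.14 ± 0.09.

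Of the 9 lysine demethylases, 2 rose, 0 fell and 7 were not called by edgeR, with log2 changes from -0.48 to 0.54. The shares over all single-gene units were 18.3% rising and 18.7% falling. Kdm4a, which removes methyl groups from trimethylated histone H3 (Itri11, 59178397 to 59232013, plus strand), stood at 81.5, 83.9 and 79.7 CPM in SA, 98.9, 92.8 and 93.1 in IBA, 121, 112 and 108 in Ent, 108, 117 and 114 in ET, and 146 and 133 in LT. Its levels formed 4 tiers, with SA lowest, IBA above it, Ent and ET together, and LT highest. The cold level was 1.42-fold the warm level (log2 change 0.51 ± 0.08 SE, edgeR adjusted p = 8.2e-05).

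Kdm3a, a demethylase of mono- and dimethylated histone H3 (Itri12, 79761245 to 79805381, plus strand), followed another course. It gave 208, 193 and 168 CPM in SA, 155, 150 and 154 in IBA, 134, 147 and 134 in Ent, 267, 193 and 221 in ET, and 286 and 253 in LT. Its lowest values were in Ent, though the step from IBA did not pass (log2 difference -0.14 ± 0.13, edgeR adjusted p = 0.48), and SA libraries overlapped ET libraries. Its cold level was 1.45-fold the warm level (log2 change 0.54 ± 0.10 SE, edgeR adjusted p = 3.7e-04). This call was lost without SA replicate 3, any single IBA library or either LT library, with adjusted p up to 0.0031.

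Kdm2b, which binds unmethylated CpG islands and brings Polycomb proteins there, was the lowest of the class per length (0.520 CPM per kb). It stood at 50.4, 73.2 and 87.0 CPM in SA, 87.2, 67.5 and 76.5 in IBA, 85.4, 71.1 and 59.0 in Ent, 49.5, 49.1 and 42.9 in ET, and 50.9 and 66.6 in LT. All ET libraries were under the warm and Ent libraries, but LT was not, and the log2 change of -0.48 ± 0.16 was not called (edgeR adjusted p = 0.016). The remaining demethylases were not called by edgeR either. The log2 change was -0.41 ± 0.09 for Kdm4c, -0.41 ± 0.11 for Kdm5b, -0.05 ± 0.11 for Kdm5a, 0.11 ± 0.09 for Kdm6a, 0.18 ± 0.11 for Kdm1b and 0.34 ± 0.08 for Kdm5c. DESeq2 called Kdm5c higher (adjusted p = 7.9e-06) and Kdm4c and Kdm5b lower (adjusted p = 6.5e-05 and 8.7e-04), where edgeR gave adjusted p = 0.0022, 0.0020 and 0.0041, and Kdm5c was called with mapped-read scaling too (0.57). Kdm5a, Kdm5b and Kdm5c remove the trimethyl mark of active promoters, Kdm1b is a flavin-dependent enzyme that removes lower methyl states, and Kdm6a removes the Polycomb mark.

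**Figure D2:**
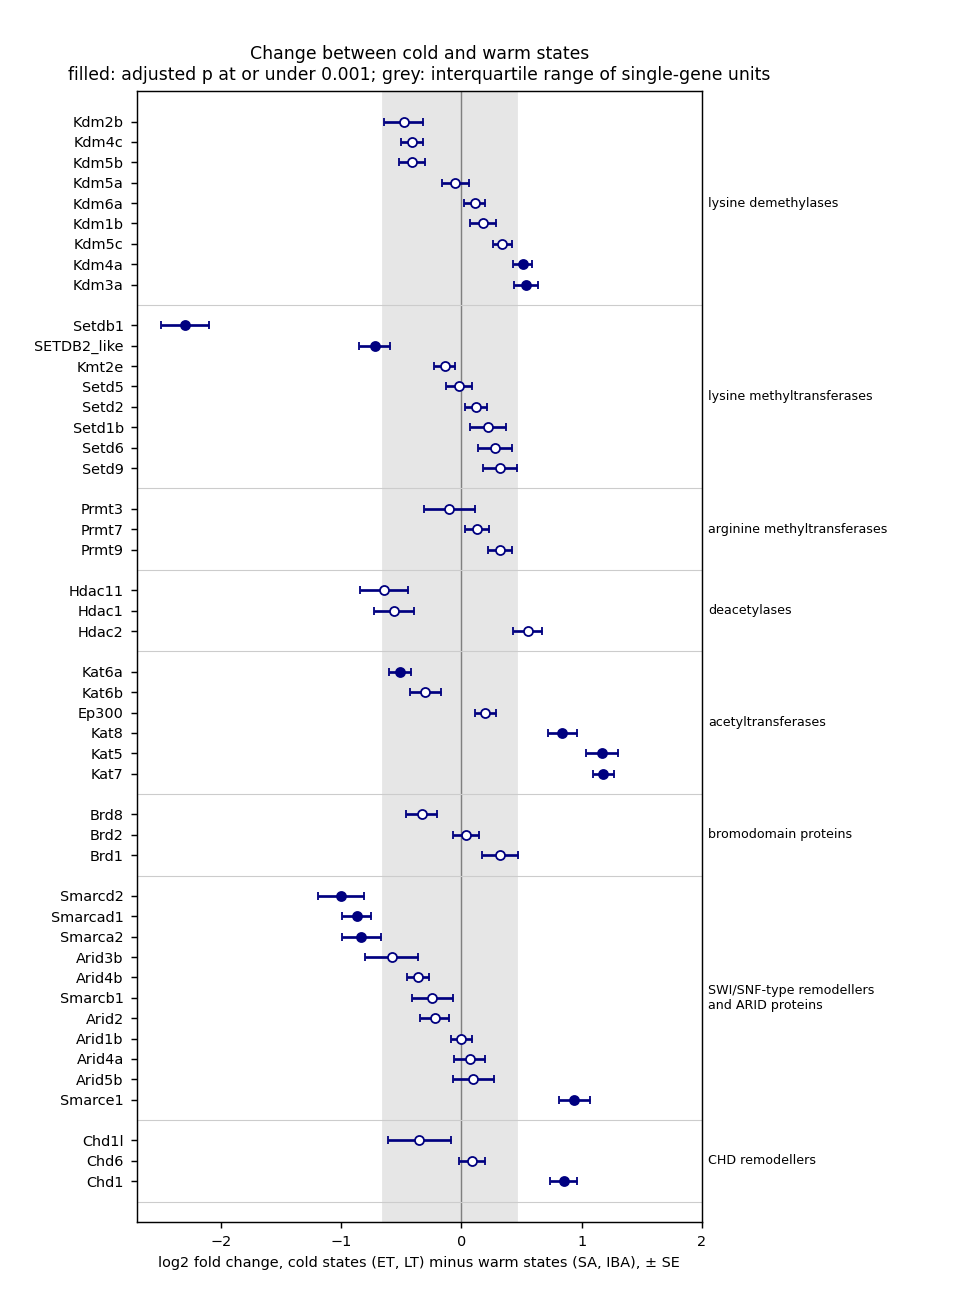
The log2 fold change of each of the 46 genes between the cold states (ET and LT) and the warm states (SA and IBA), with its standard error, is plotted by class. Filled points passed an adjusted p of 0.001, and the grey band spans the interquartile range of all single-gene units. The filled points include Kat7 (1.18), Kat5 (1.17), Smarce1 (0.94), Chd1 (0.85) and Kat8 (0.84) on the right and Setdb1 (-2.30) alone at the far left.

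Of the 11 SWI/SNF-type remodellers and ARID proteins, 1 rose, 3 fell and 7 were not called, with a median log2 change of -0.24. Among all single-gene units 18.3% rose and 18.7% fell, with a median of -0.07. Smarce1, the BAF57 subunit with a DNA-binding HMG box (Itri7, 21416266 to 21444671, plus strand), stood at 57.6, 40.7 and 50.6 CPM in SA, 60.8, 59.6 and 65.8 in IBA, 77.0, 88.3 and 116 in Ent, 110, 123 and 114 in ET, and 85.4 and 110 in LT. The Ent libraries overlapped the cold ones, and every Ent, ET and LT library was above every SA and IBA library. Its cold level was 1.91-fold the warm level (log2 change 0.94 ± 0.13 SE, edgeR adjusted p = 4.4e-05). It had the highest level per length in this class, 2.91 CPM per kb.

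Smarcad1, a SNF2-family remodeller that acts outside SWI/SNF in heterochromatin upkeep and DNA end resection (Itri15, 24542992 to 24617637, minus strand), stood at 92.1, 117 and 92.8 CPM in SA, 133, 108 and 114 in IBA, 89.1, 73.8 and 81.8 in Ent, 48.4, 66.6 and 56.2 in ET, and 60.2 and 64.2 in LT. Warm, entering and cold libraries again formed 3 tiers. The cold level was 1.83-fold lower (log2 change -0.87 ± 0.12 SE, edgeR adjusted p = 3.4e-05).

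Smarcd2 and Smarca2 were described after their values were seen. Smarcd2, an accessory subunit with the shortest unit of all 46 (9831 nt), stood at 40.0, 44.8 and 31.7 CPM in SA and 19.3, 23.4 and 19.0 in IBA, so that each IBA library was under each SA library. It averaged 22.1 CPM ± 7.88 in Ent, 14.6 ± 2.67 in ET (n = 3 each, SD) and 13.6 ± 1.75 in LT (n = 2). No cold library reached the lowest warm one, and the cold level was 2.0-fold lower (SE of the log2 change 0.19, edgeR adjusted p = 6.0e-04). Its call remained in 4 of the 14 fits that left out a library. Smarca2, the ATPase BRM, stood at 350, 217 and 481 CPM in SA and 270, 245 and 247 in IBA. It averaged 173 CPM ± 8.75 in Ent, 154 ± 17.2 in ET (n = 3 each, SD) and 184 ± 6.53 in LT (n = 2), with the spread wide in SA and narrow elsewhere. It fell by 0.83 on the log2 scale (SE 0.16, edgeR adjusted p = 6.8e-04), a call that remained in 2 of the 14 such fits. Neither was called with mapped-read scaling, at -0.77 for Smarcd2 and -0.60 for Smarca2.

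Among the ARID proteins 0 of 6 were called by edgeR in the cold contrast (37.0% of all single-gene units) or across the 5 states (26.4%). Arid4b was called by DESeq2 in the cold contrast, and Arid3b and Arid4b passed an adjusted p of 0.05 in edgeR. Arid3b, a DNA-binding protein that was the lowest of all 46 genes per length (0.518 CPM per kb), stood at 19.0, 37.7 and 32.6 CPM in SA, 34.7, 21.7 and 23.9 in IBA, 19.4, 22.7 and 18.7 in Ent, 16.2, 21.4 and 19.0 in ET, and 12.7 and 24.9 in LT. The ranges overlapped (log2 change -0.58 ± 0.22, edgeR adjusted p = 0.036). The BAF subunit gene Arid1b, the longest unit of the group at 390831 nt, gave 0.00 ± 0.09, with 854 to 982 CPM in warm and 799 to 968 CPM in cold libraries. Its PBAF counterpart Arid2 gave -0.22 ± 0.12. Arid4a and Arid4b, which belong to Sin3 deacetylase complexes, gave 0.07 ± 0.13 and -0.36 ± 0.09, Arid5b, a cofactor in fat and liver metabolism, 0.10 ± 0.17, and the SWI/SNF core subunit gene Smarcb1 -0.24 ± 0.17.

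Of the 3 CHD remodellers only Chd1 was called, against 37.0% of all single-gene units. Chd1, which binds the methyl mark of active promoters and clears nucleosomes for the elongating polymerase (Itri1, 166760999 to 166831059, plus strand), stood at 147, 152 and 160 CPM in SA, 135, 121 and 131 in IBA, 137, 154 and 162 in Ent, 292, 278 and 204 in ET, and 279 and 221 in LT. Its Ent libraries spanned the range of the SA ones, and the cold libraries were above all others. The cold level was 1.81-fold the warm level (log2 change 0.85 ± 0.11 SE, edgeR adjusted p = 2.3e-05). Chd6, a related remodeller, stood at 251, 179 and 242 CPM in SA, 230, 218 and 218 in IBA, 268, 227 and 267 in Ent, 209, 246 and 233 in ET, and 277 and 213 in LT. These ranges overlapped throughout (log2 change 0.09 ± 0.11, edgeR adjusted p = 0.51). Chd1l, a remodeller activated by poly(ADP-ribose), gave -0.35 ± 0.26, with a range of 76.0 to 180 CPM within Ent alone.

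None of the 3 deacetylases was called in this contrast, although all 3 passed an adjusted p of 0.05 (as did 65.1% of all single-gene units). Hdac2 stood at 68.0, 47.0 and 53.7 CPM in SA, 58.3, 60.0 and 62.6 in IBA, 64.3, 72.1 and 67.3 in Ent, 76.4, 112 and 89.2 in ET, and 75.3 and 81.2 in LT. All cold libraries were above all warm ones (log2 change 0.55 ± 0.12, edgeR adjusted p = 0.0016). It was called by DESeq2 (adjusted p = 4.6e-05), with mapped-read scaling (0.78), and without SA replicate 1 or ET replicate 1. Hdac1, its close relative in the NuRD, Sin3 and CoREST complexes, was described after its values were seen. It stood at 53.0, 86.9 and 80.9 CPM in SA, 53.7, 47.2 and 57.2 in IBA, 50.2, 41.3 and 41.4 in Ent, 57.1, 40.7 and 37.5 in ET, and 32.7 and 46.4 in LT. The change had the other sign and its ranges overlapped (log2 change -0.56 ± 0.17, edgeR adjusted p = 0.010). Hdac11, the single member of its own deacetylase class, stood at 52.3, 36.3 and 49.2 CPM in SA, 36.7, 65.0 and 36.1 in IBA, 41.5, 29.0 and 39.0 in Ent, 43.4, 26.7 and 29.2 in ET, and 25.1 and 27.1 in LT. ET replicate 1 was the only cold library inside the warm range (log2 change -0.64 ± 0.20, edgeR adjusted p = 0.013).

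The bromodomain and arginine methyltransferase genes were not called by edgeR either, 0 of 3 in each class. This held in the cold contrast (37.0% of all single-gene units called) and across the 5 states (26.4%). At an adjusted p of 0.05 Brd8 and Prmt9 passed in the cold contrast, and Prmt9 was called by DESeq2 across the 5 states and with mapped-read scaling in the cold contrast (0.54). Brd2, a BET reader of acetylated histones, had by far the highest level per length of the 46 genes, 15.3 CPM per kb against a median of 2.00, and its states overlapped. It stood at 311, 324 and 277 CPM in SA, 248, 315 and 272 in IBA, 335, 344 and 251 in Ent, 339, 304 and 269 in ET, and 272 and 314 in LT (log2 change 0.04 ± 0.11, edgeR adjusted p = 0.78). Brd8, a subunit of the same NuA4 complex as Kat5, stood at 68.0, 56.9 and 83.5 CPM in SA, 48.6, 47.2 and 57.0 in IBA, 41.5, 47.9 and 49.5 in Ent, 34.8, 43.2 and 51.7 in ET, and 54.9 and 49.5 in LT. Its highest levels were in SA, and all states overlapped with a neighbour (log2 change -0.33 ± 0.13, edgeR adjusted p = 0.048). Brd1, a scaffold of Kat7 complexes, gave 0.32 ± 0.15.

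Prmt3, which methylates a ribosomal protein, showed its widest gap within the warm states. It stood at 51.1, 72.6 and 46.3 CPM in SA, 111, 92.2 and 106 in IBA, 60.7, 61.2 and 60.5 in Ent, 35.6, 85.4 and 88.3 in ET, and 79.1 and 67.0 in LT. IBA was above every other state, and ET replicate 1 was less than the other ET libraries by a wide margin. The log2 change between cold and warm was -0.10 ± 0.21 and changed sign with mapped-read scaling (0.14). Prmt7, which adds single methyl groups to arginine, was level at 60.0, 73.2 and 59.2 CPM in SA, 64.8, 59.6 and 63.1 in IBA, 60.5, 72.7 and 70.3 in Ent, 64.5, 62.7 and 71.2 in ET, and 68.0 and 76.3 in LT (log2 change 0.13 ± 0.10, edgeR adjusted p = 0.27). Prmt9, which methylates a splicing factor, gave 0.32 ± 0.10 (edgeR adjusted p = 0.014).

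**Figure D3:**
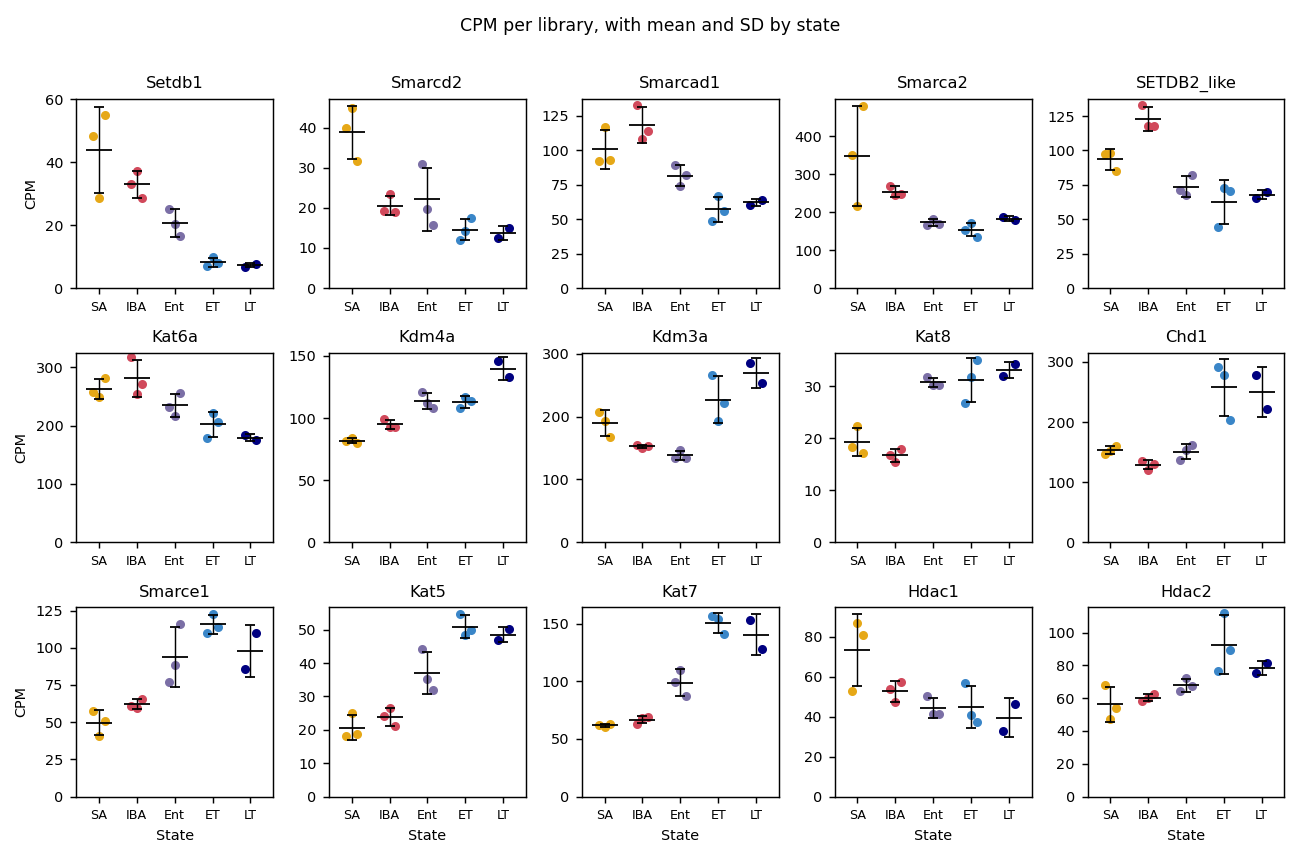
CPM of each library (points) by state on linear axes from 0, with the mean and SD of each state, for the 13 genes called between cold and warm states and for Hdac1 and Hdac2. Setdb1 drops from 28.6 to 54.9 CPM in the warm libraries to 6.80 to 9.82 in the cold ones, and Kat5, Kat7 and Smarce1 climb through Ent.

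The steps of the torpor cycle were then compared in turn. Counts under DESeq2 or mapped-read scaling have no share over all units beside them and show only how stable the counts are. Between SA and IBA, the seasonal step between the warm states, 0 of the 46 genes were called by edgeR (background 0.0213%) and 0 by DESeq2. Also 0 passed an adjusted p of 0.05 (background 5.57%), and 10 reached 0.05 without adjustment (21.7%, against 23.4%). The largest differences were in Smarcd2, whose IBA minus SA log2 difference was -0.91 ± 0.25 (edgeR adjusted p = 0.056), and Prmt3, at 0.87 ± 0.28 (edgeR adjusted p = 0.093).

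Between IBA and Ent, 0 genes were called by edgeR (background 0.0425%) and 3 by DESeq2 (Kat7, Kat8 and SETDB2_like), and 12 reached 0.05 without adjustment (26.1%, against 33.4%). At an adjusted p of 0.05, 6 passed in edgeR (13.0%, against 16.7%), 4 of them higher in Ent (background 8.57%) and 2 lower (background 8.12%). Kat8 was higher by 0.87 ± 0.16 on the log2 scale (edgeR adjusted p = 0.0055), and Kat7, Kat5 and Smarce1 were higher by 0.57 ± 0.12, 0.63 ± 0.18 and 0.59 ± 0.17. SETDB2_like was lower, at -0.74 ± 0.17 (edgeR adjusted p = 0.014), as was Smarcad1 at -0.54 ± 0.15 (edgeR adjusted p = 0.033). All 6 are also among those called between cold and warm states, and both comparisons use the IBA libraries.

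Between Ent and ET, 0 genes were called by edgeR (background 2.30%), 4 by DESeq2 (Kat7, Chd1, Kdm3a and Setdb1) and 2 with mapped-read scaling (Kat7 and Kdm3a), while 13 reached 0.05 without adjustment (28.3%, against 41.1%). At an adjusted p of 0.05, 8 passed in edgeR (17.4%, against 29.2%), 5 higher in ET (background 15.4%) and 3 lower (background 13.8%). The higher ones were Chd1 (log2 difference 0.77 ± 0.15), Kdm3a (0.72 ± 0.13), Brd1 (0.65 ± 0.20), Kat7 (0.61 ± 0.12) and Prmt9 (0.48 ± 0.13). The lower ones were Setdb1 (-1.34 ± 0.26), Kdm2b (-0.61 ± 0.21) and Smarcad1 (-0.52 ± 0.15). Kat7 and Smarcad1 thus passed 0.05 in both steps of entry and in the same direction, whereas Kat8 passed in the first (0.02 ± 0.16 in the second) and Chd1 and Kdm3a in the second (0.23 ± 0.15 and -0.14 ± 0.13 in the first). Whether the steps differed from each other was not tested. All ET animals and no Ent animal came from the second season, so season and state cannot be told apart from Ent to ET.

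The place of Ent between the warm and cold states, as the share of the log2 way from the warm to the cold mean, put the 9 genes called across the 5 states in an order. It was 94.2% for Kat8, 77.0% for Kdm4a, 76.9% for Smarce1, 62.3% for Kat5, 51.9% for Kat7, 47.2% for Smarcad1, 38.7% for Setdb1 and 12.2% for Chd1. Kdm3a stood at -58.4%, on the far side of the warm states. These shares carry the spread of the 3 Ent libraries, and neighbours in this order were not tested against each other.

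Between ET and LT, 0 genes were called by edgeR (background 0%) and 0 by DESeq2, and 2 reached 0.05 without adjustment (4.35%, against 9.27%). The log2 differences ran from -0.35 for Hdac11 to 0.32 for Kdm1b. With 2 LT libraries, small differences were not detectable. ET and LT animals also came from different seasons, which cannot be told apart from time in torpor.

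Between IBA and LT, 7 genes were called (15.2%, against 17.6%), 5 higher in LT (background 9.46%) and 2 lower (background 8.18%). The higher ones were Kat7 (log2 difference 1.07 ± 0.13), Kat5 (1.02 ± 0.19), Kat8 (0.98 ± 0.18), Chd1 (0.95 ± 0.16) and Kdm3a (0.82 ± 0.15), and the lower ones Setdb1 (-2.19 ± 0.31) and Smarcad1 (-0.93 ± 0.18). IBA and LT animals were collected in different seasons. With season as a covariate, which rests on the SA and Ent animals of both seasons, 1 gene remained called, Setdb1 at -2.51 ± 0.39 (edgeR adjusted p = 7.7e-04). The other 6 kept their direction, with log2 differences of 0.94 ± 0.19 for Kat7 and 1.08 ± 0.23 for Chd1. Without LT replicate 1 the count was 0, and without LT replicate 3 it was 1. It was 2 without any one of the IBA libraries, 3 without ET replicate 3, and 4 without SA replicate 1, Ent replicate 1 or Ent replicate 2.

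Ratios of related genes within a library do not depend on how libraries are scaled. For 8 pairs of relatives, chosen with the results known, the log2 ratio of CPM in the 5 cold and 6 warm libraries is given as a description, with no test. The Hdac2 to Hdac1 ratio averaged -0.09 ± 0.52 (SD, n = 6) on the log2 scale in warm and 1.03 ± 0.42 (n = 5) in cold libraries, a difference of 1.12. The highest warm ratio was 0.36, in SA replicate 1, and the lowest cold ratio 0.42, in ET replicate 1, so the groups were separate by a narrow margin.

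Among the demethylases, the log2 ratio of Kdm4a to Kdm4c was higher by 0.89 and that of Kdm5c to Kdm5b by 0.73 in the cold libraries, with no overlap of libraries. The ratio of SETDB2_like to Setdb1, both of which fell, was higher by 1.51, also with no overlap. Smaller differences, with overlap of libraries, were seen for Kdm5a over Kdm5b (0.35), Kdm5c over Kdm5a (0.38), Arid4a over Arid4b (0.39) and Kat6b over Kat6a (0.17). The ratios among the Kdm5 genes share members and are not independent of each other. In each of the 8 pairs the difference of the first-season libraries alone, LT minus SA replicate 1, had the same sign, from 0.34 for Kat6b over Kat6a to 2.21 for SETDB2_like over Setdb1. Those libraries are also among the cold and warm ones above, so this is no independent support.

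**Figure D4:**
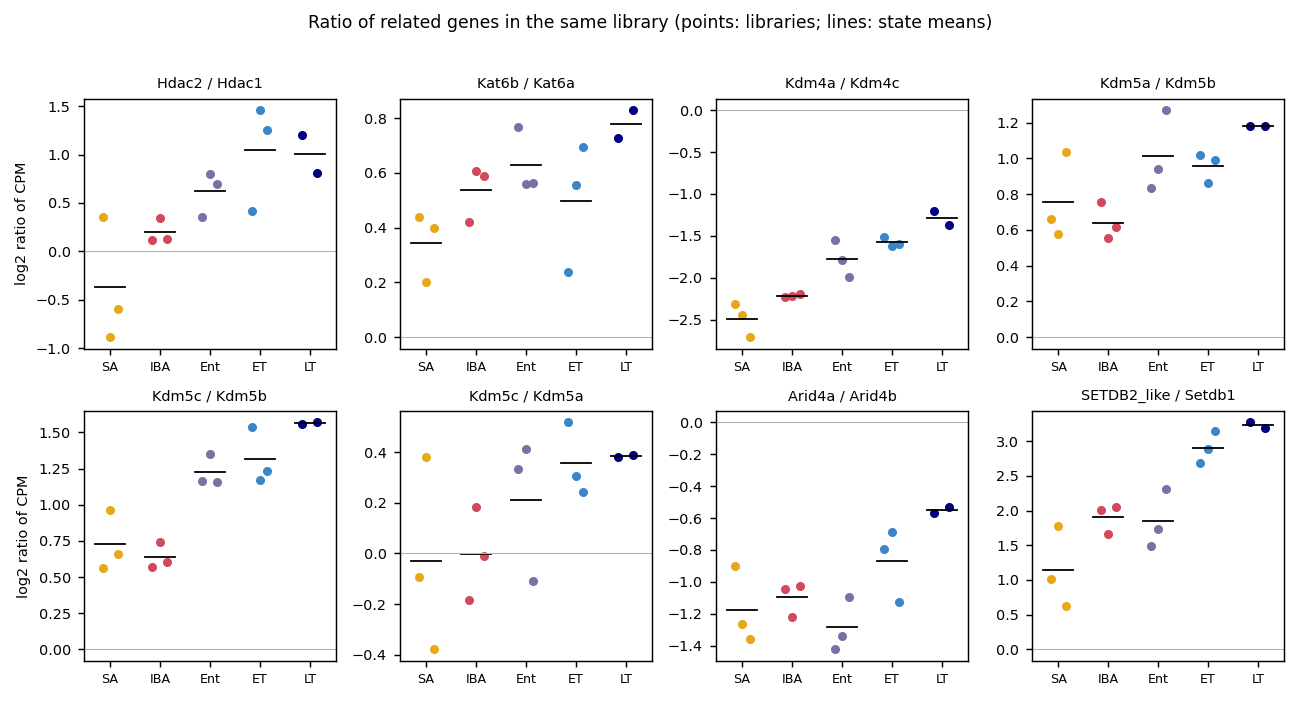
Each panel gives the log2 ratio of the CPM of 2 related genes in every library (points) with state means (lines). The Hdac2 to Hdac1 and Kdm4a to Kdm4c ratios climb from SA to the cold states, the SETDB2_like to Setdb1 ratio is highest in ET and LT, and the Kat6b to Kat6a panel shows overlapping states.

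The units of the 46 genes were longer than most, with a median of 54652 nt against 36217 nt for all single-gene units, and the size of the change went with length in both sets. Spearman's rho between unit length and the size of the log2 change was -0.43 over the 46 genes and -0.29 over the 4705 units, as a description, since all genes come from the same libraries and longer units collect more reads. Of the 21 genes under 50000 nt, 7 were called between cold and warm (33.3%, against 43.2% of all units of that length). Of the 12 between 50000 and 100000 nt, 4 were called (33.3%, against 32.7%), and of the 13 longer ones 2 (15.4%, against 19.7%). The median size of the change in these bins was 0.54, 0.35 and 0.22 for the 46 genes and 0.68, 0.44 and 0.35 for all units. In each bin the median of the 46 genes was thus the lower one, a difference that was not tested.

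**Figure D5:**
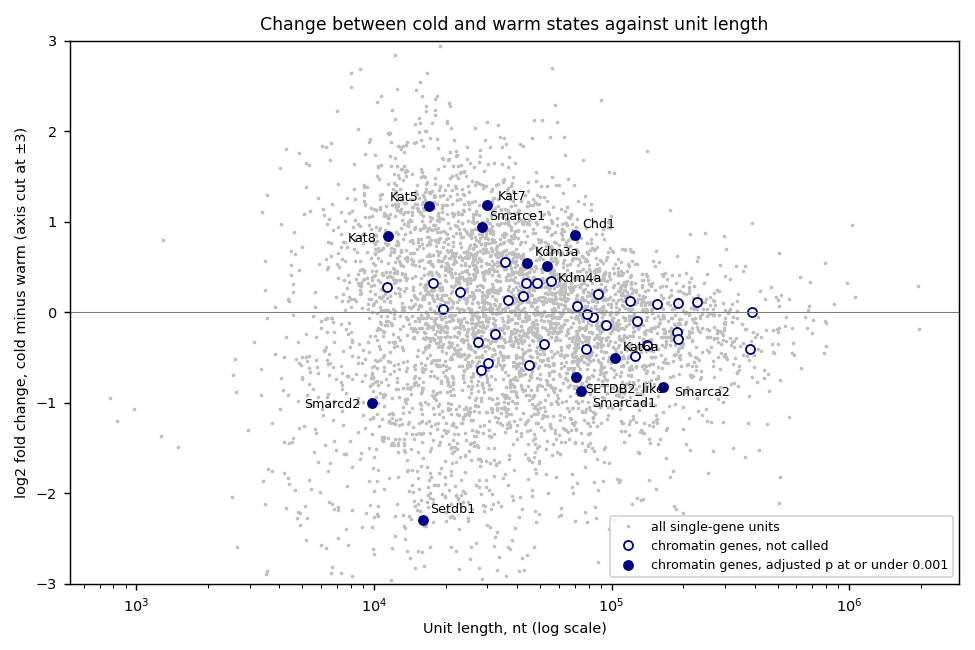
The log2 fold change between cold and warm states is plotted against unit length (log scale) for all single-gene units (grey, axis cut at ±3) and for the 46 chromatin genes, filled where called. The changes of both narrow towards longer units, and Setdb1 (-2.30) is the chromatin gene farthest from 0.

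Some of the called genes were neighbours of other units. Only the 6324 units counted here were searched, so a gene without a unit could lie nearer than the distances given. The nearest unit upstream on the same strand ended 18348 nt before Kdm4a (Ptprf), 38433 nt before Kat5 (a merged unit with Sipa1 and Pcnx3) and 107574 nt before Kat8 (a merged unit that holds Setd1a). For Kdm3a, Smarce1, Kat7 and Chd1 this distance was 150473, 217066, 710548 and 3502827 nt. With both strands considered, a nearer upstream unit lay on the other strand for Kat8 (1040 nt), Chd1 (1227 nt), Kat7 (20087 nt) and Kdm3a (89719 nt). The same held for SETDB2_like (1311 nt), Setdb1 (28509 nt) and Kat6a (197002 nt), which fell, but not for the other called genes. Transcription carried over from upstream genes during torpor, or running past the annotated end of a gene itself, was not measured separately in these counts. Its part in the results was not tested.

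A second list of 108 chromatin genes outside the naming rule, mostly partner subunits, had 41 single-gene units. In the test across the 5 states 8 of these were called (19.5%, against 26.4% of all single-gene units). Between cold and warm states 13 were called (31.7%, against 37.0%), of which 10 rose (24.4%, against 18.3%) and 3 fell (7.32%, against 18.7%). Hcfc1, a subunit of methyltransferase and acetyltransferase complexes, went from 56.0 to 164 CPM (log2 change 1.56 ± 0.14, edgeR adjusted p = 1.4e-06). The histone-binding proteins Rbbp4 and RBBP7, which sit in Hdac1 and Hdac2 complexes and in Polycomb, went from 126 to 275 and from 20.8 to 54.4 CPM (log2 changes 1.14 ± 0.09 and 1.39 ± 0.11). The deubiquitinase Bap1 rose by 1.18 ± 0.15, while its partners Asxl1 and Asxl2 fell by 0.76 ± 0.10 and 0.77 ± 0.10 on the log2 scale. Baz1a, a partner of ISWI remodellers, fell by 1.22 ± 0.14, and Cbx3, a heterochromatin reader, rose by 0.96 ± 0.16, Suz12 of Polycomb by 0.56 ± 0.09, Ash2l, a methyltransferase subunit, by 0.54 ± 0.10, Ss18 by 0.69 ± 0.13, and Phf10 by 0.47 ± 0.09. Riox1 rose from 15.6 to 32.3 CPM (edgeR adjusted p = 6.7e-04).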

How the data were processed

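The values deposited by the authors are raw read counts per transcription unit and library. As the study describes, GRO-seq reads were trimmed, aligned to the HiC_Itri_2 genome and counted on gene bodies redefined from the GRO-seq reads themselves. Where transcription called over the merged states ran past the annotated end of a gene, its body was extended to there. The first 500 nt of each body were removed and overlapping genes were merged. Counts of an extended gene can thus include reads from past its annotated end. Whether the counting used strand is not given in the sources used here. Per the labels, cutadapt, BWA, featureCounts and DESeq2 were used. LT replicate 2 was not analysed here. Groups are those of the labels, and replicates are separate animals.

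Counts of all 6324 units in 14 libraries were fitted in edgeR 4.0.16 (R 4.3.3) by quasi-likelihood with TMM scaling and 1 coefficient per state. Adjusted p-values are Benjamini-Hochberg over every unit, the threshold was 0.001, and SE is the log2 change over the square root of F. No unit was removed here. Each member had at least 45 counts in each library, and SDs and SEs hold counting error together with the spread of animals. Of the fits, only the main edgeR fit was run on simulated counts, and only its cold with warm and IBA to LT contrasts were scored. Simulated log2 changes of 1 were recovered only in part at the threshold. The run checks the fit and is no support for any call. The members, lists and paralog pairs were chosen with earlier results of these data known. Named genes are the members called across the 5 states, the highest and lowest per length in each class, and Ep300. Every other member is given by its log2 change, and any fuller account of one was chosen after its values were seen. Coordinates are those of the deposited table. Symbols of 45 of the 46 members were matched in RefSeq, another assembly, from which nothing else was used, and no sequence was used. The value of 1 merged unit is not reported here. Alternatives were DESeq2 1.42.0, adjusted deviances, other scalings (mapped reads are from the study's sample metadata), a minimum of 10 counts, single-gene units alone, an adjusted p of 0.05, replicate block, season and each library left out. Python 3.11.15 with scipy 1.17.1 was used for tables.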

Additional observations from a re-analysis of the deposited data

How the results depend on the processing

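Across the 5 states, 9 genes were called, against 16 with DESeq2, 5 with replicate number as a block, 23 at an adjusted p of 0.05, and 4 to 9 with 1 library left out (4 without any one IBA library or ET replicate 3, 5 without either LT library). Between cold and warm states, 13 were called, against 24 at 0.05 and 8 to 12 with 1 library left out, with 9 under the replicate block (7 higher, 2 lower) and 18 with DESeq2. From IBA to Ent 0 were called, against 3 with DESeq2 and 6 at 0.05. From Ent to ET 0 were called, against 4 with DESeq2, 2 with mapped-read scaling and 8 at 0.05. From IBA to LT 7 were called, against 11 with DESeq2, 4 with upper-quartile normalization, 2 with the replicate block and 1 with season as a covariate. At 0.05, 17 passed (37.0%, against 50.7% of all single-gene units). With 1 library of a state other than LT left out, 2 to 7 were called. Fits with fewer libraries, or with LT down to 1 library that is assumed to vary like the others, have less information. The cause of these moves was not tested. The summed CPM ratio of cold to warm was 1.16 with mapped reads. Shares over all units were taken for the main fit only. Counts under DESeq2 and the other settings therefore have no background here and show how stable the counts are, not a trait of these genes.

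Sign changes were limited to 4 named genes that were not called. Mapped-read scaling gave 0.14 for Prmt3 and 0.20 for Setd5, and single-gene units alone gave 0.00 for Setd5. With 1 library left out, Brd2 ran from -0.02 to 0.09, Chd6 from -0.01 to 0.18, Prmt3 from -0.20 to 0.06 and Setd5 from -0.07 to 0.04. Replicate numbers name different animals: deviations from the state means correlated at a median r of 0.0398 over 26 pairs of libraries with the same number and -0.0104 over 52 with different numbers, so the block is not a pairing.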

Other observations

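Another 32 units held a name that fits the rule but were merged with neighbouring genes, so that their counts cannot be assigned to 1 gene (1 of them is an antisense RNA of Kmt2e by its name). Of these, 8 were called between cold and warm states, 25.0% against 34.2% of all merged units, 5 higher in the cold and 3 lower. The higher ones held Prmt1, the main arginine methyltransferase (with Adm5 and Cpt1c, log2 change 1.39 ± 0.15), Smarca5, the ISWI ATPase (0.87 ± 0.10), Chd9 (with Rbl2, 0.79 ± 0.11), Kmt5a (0.64 ± 0.12) and Kdm3b (with Reep2 and Fam53c, 0.62 ± 0.08). The lower ones included a unit with Kmt2a, a methyltransferase of active promoters (with Ttc36 and Tmem25, -1.46 ± 0.12, from 373 to 138 CPM), and a unit with Prmt5 (with Rbm23, -1.08 ± 0.12). The unit with Crebbp, the relative of Ep300, gave -0.30 ± 0.09 (edgeR adjusted p = 0.010) together with Trap1, and the unit with Sirt1 gave -0.03 ± 0.13.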
